A study of Rattus norvegicus with 6 samples.

Results

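The genes described here encode the enzymes of the citric acid cycle and of the reactions that refill, drain or shuttle its intermediates. They were taken by name from a list of 31 enzyme genes, and the rule for membership uses gene names alone. Of the 31 names, 26 matched a row among the 21648 genes counted. Idh3g, Glud1, Gpd1, Gpt2 and Ogdh matched no row by symbol and were not analysed under those names, although a row named LOC103693780, which carries the Entrez number of Ogdh beside its own, is described separately. Of the 26 matched genes, 17 encode mitochondrial enzymes, 8 cytosolic enzymes, and 1, Fh, an enzyme found in both compartments.

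The cells were wild-type ventricular cardiomyocytes isolated from rat pups at postnatal day 3 and kept in culture (NRVM). The control group received the solvent DMSO and the other group 10 µM of 915, which the submitters call an ERR agonist (ERRs, the estrogen-related receptors, are orphan nuclear receptors). Both groups were treated for 72 h and each is represented by 3 libraries, labelled as biological replicates. Whether they came from separate isolations is not stated, so the p-values below set the group difference only against the spread of these libraries. Part of that spread may be technical. Both groups also shared the isolation: attachment of fibroblasts to plastic for 90 min, seeding with 100 µM bromodeoxyuridine, and later medium with insulin, transferrin and selenium. Such cultures still hold some other cells of the heart. The study asks how ERR agonists affect the transcriptome of these cells, with fatty acid metabolism and mitochondrial function named in its title.

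In the cycle, citrate synthase joins acetyl-CoA to oxaloacetate, and the carbon is then oxidised through isocitrate, 2-oxoglutarate, succinyl-CoA, succinate, fumarate and malate back to oxaloacetate, which yields NADH and reduced flavin for the respiratory chain. Because intermediates leave the cycle for other uses, they are replaced by anaplerotic reactions such as the carboxylation of pyruvate and the entry of glutamate carbon. In heart muscle the malate dehydrogenases and aspartate transaminases of both compartments also form the malate-aspartate shuttle, which carries cytosolic reducing equivalents into mitochondria. ERRs are known to act on many genes of mitochondrial energy metabolism, the cycle included.

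The table held between 30639244 and 40010826 counts per library. Levels are given as the authors' CPM (counts scaled to the same total in every library), with mean ± SD over the 3 libraries of a group. No transcript lengths were used, so levels are compared between groups for 1 gene and not between genes. Fold changes come from edgeR's quasi-likelihood model with TMM scaling of the library totals, and a gene was called when its Benjamini-Hochberg adjusted p over all 14253 genes tested was under 0.05. TMM-scaled fold changes of 915 over DMSO lie slightly above the ratio of the printed CPM means. Of 6 cardiomyocyte markers, all were called higher with 915, where 24.3% of all genes tested were. Their summed level was 12010.3 to 12817 CPM in the DMSO libraries and 17562 to 17796 CPM in the 915 libraries. The rises were unequal, with log2 fold changes from 0.23 (Actn2) and 0.29 (Tnnt2) to 0.81 (Myh6) and 1.07 (Tnni3). Of 9 fibroblast markers 6 were lower and 2, Dcn and Pdgfra, higher (sum 21211 to 22091 CPM with DMSO and 11228 to 11874 CPM with 915). Most of that sum came from Col1a1 (means 11987.7 CPM with DMSO and 6289.1 CPM with 915) and Col3a1 (7067.5 and 2825.8 CPM). Postn was not called (1606.4 and 1597.5 CPM). Smooth muscle and pericyte markers were lower in 4 of 5 cases (1661 to 1797 CPM and 647 to 698 CPM), and of 6 markers each of endothelium and of macrophages and leukocytes 4 were lower (61.4 to 64.7 and 47.8 to 48.5 CPM, and 209 to 225 and 106 to 128 CPM), with Kdr, an endothelial marker, higher. None of the markers found in the table was at 0 in every library. These shifts accompany every result below, and their part in it was not tested. In RNA from whole cultures, fewer cells of a type and less RNA per cell cannot be told apart.

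Most of these enzyme genes were modestly higher with 915. Of the 25 genes that passed the filter on low counts, 17 were called higher, where 24.3% of all genes tested were called higher. Another 3 (Aco1, Me2 and Pck2) were called lower, where 25.5% of all genes were, and 5 (Idh1, Suclg2, Gpt, Gpd1l and Gpd2) were not called. The remaining matched gene, Pck1, had too few counts to be tested. The median log2 fold change of the 25 genes was 0.24, against −0.01 over all genes tested. Sizes were small throughout: log2 fold changes ran from −0.30 for Me2 to 0.72 for Me3, and Me3 alone reached 1.5-fold. In deposited CPM, all 915 libraries lay above all DMSO libraries for 16 of the 26 genes, which was so for 23.9% of all genes tested, and below them for 6, which was so for 32.8%. Under 13 alternative settings of the analysis, 16 of the 17 higher calls and 1 of the 3 lower calls, that of Me2, held in all 13.

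**Figure D1:**
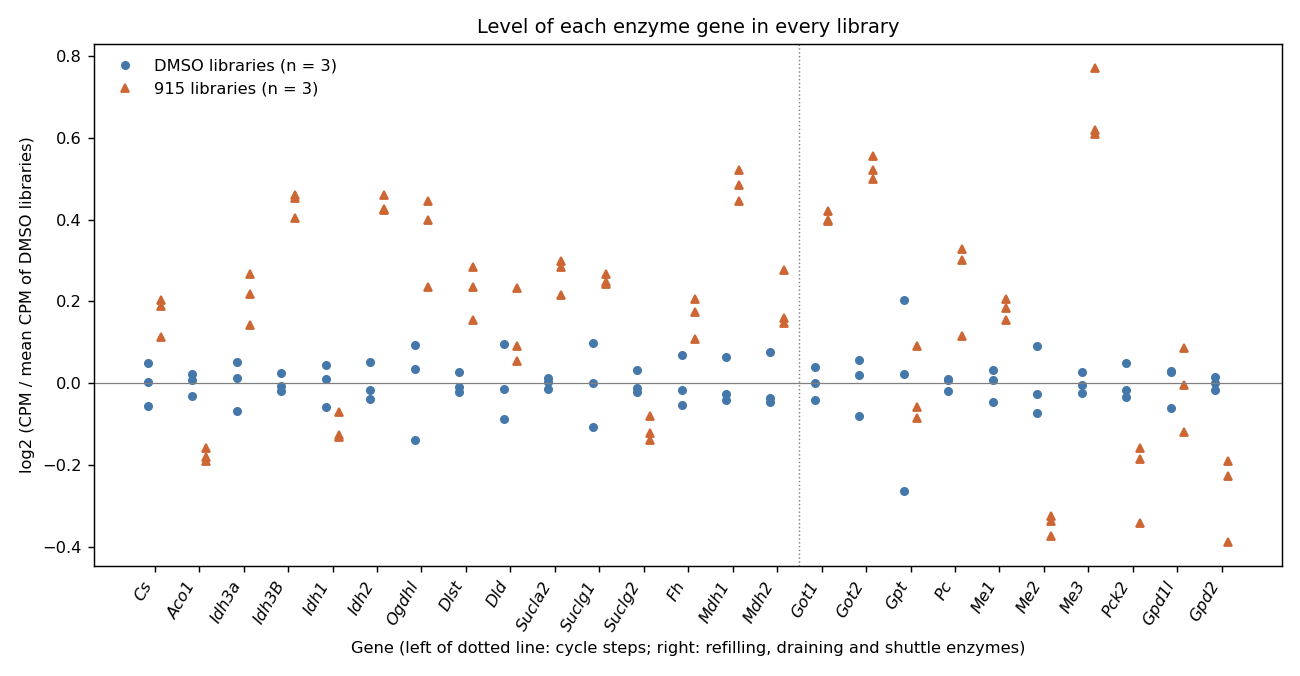
Level of 25 enzyme genes in each library, as log2 of CPM over the mean CPM of the 3 DMSO libraries of that gene (vertical axis), with circles for DMSO and triangles for 915 libraries. Genes left of the dotted line belong to cycle steps and those to the right to refilling, draining and shuttle reactions. The triangles lie above all circles for most cycle genes, with Aco1, Idh1 and Suclg2 below them and Dld overlapping.

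The entry of the cycle rose slightly. Transcripts of Cs (ENSRNOG00000023520), citrate synthase, stood at 243, 261 and 252 CPM in DMSO libraries 1 to 3 and at 290.1, 288 and 273 CPM in 915 libraries 1 to 3. All 915 libraries were above all DMSO libraries, and the rise was 1.16-fold (252 ± 9.18 and 283 ± 9.43 CPM, log2 fold change 0.22 ± 0.0488 (SE), edgeR adjusted p = 1.98e-03). Aco1 (ENSRNOG00000005849) encodes the cytosolic aconitase, which turns citrate into isocitrate and doubles as an iron-sensing RNA-binding protein. Aco1 was at 92.3, 93.3 and 89.9 CPM with DMSO and at 80.5, 81.1 and 82.4 CPM with 915. Its level was thus lower in every 915 library, by 1.09-fold (log2 fold change −0.13 ± 0.0486, edgeR adjusted p = 0.0428), a call that ended whichever library was left out (adjusted p = 0.0544 to 0.132) and in DESeq2 (adjusted p = 0.0712).

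Isocitrate is oxidised by a NAD-dependent enzyme, the regulated step of the cycle built from the products of Idh3a, Idh3B and Idh3g, and by the NADP-dependent enzymes of Idh2 in mitochondria and Idh1 in cytosol and peroxisomes, which supply NADPH. Idh3B (ENSRNOG00000007316) was at 121, 125 and 122 CPM with DMSO and at 169, 168 and 163 CPM with 915, 1.4-fold higher (log2 fold change 0.49 ± 0.0460, edgeR adjusted p = 8.32e-07). Its partner Idh3a (ENSRNOG00000010277), the catalytic subunit, rose less, from 129, 140.2 and 136 CPM to 149, 157 and 163 CPM (1.2-fold, 0.26 ± 0.0534, edgeR adjusted p = 1.06e-03). The groups did not overlap for either subunit. Idh2 (ENSRNOG00000013949) was at 572, 609 and 581 CPM with DMSO and at 808, 789 and 789 CPM with 915, 1.4-fold higher (0.48 ± 0.0455, edgeR adjusted p = 7.78e-07). In contrast Idh1 (ENSRNOG00000015020) was not called, at 99.1, 92.3 and 96.9 CPM with DMSO and 91.5, 87.8 and 88.0 CPM with 915. Its CPM values did not overlap between groups, with the 915 libraries on the lower side, but the fitted change was −0.06 on the log2 scale with a 95% interval of −0.17 to 0.05 (edgeR adjusted p = 0.334).

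The 2-oxoglutarate dehydrogenase complex, which makes succinyl-CoA, consists of a dehydrogenase (Ogdh or its relative Ogdhl), the succinyltransferase Dlst and the dihydrolipoamide dehydrogenase Dld, a subunit that the pyruvate and branched-chain complexes share. Dlst (ENSRNOG00000005061) was at 241, 249 and 243 CPM with DMSO and at 298, 288 and 272 CPM with 915, 1.21-fold higher (log2 fold change 0.27 ± 0.0478, edgeR adjusted p = 2.73e-04). Ogdhl (ENSRNOG00000019955) rose 1.33-fold, from 25.1, 21.4 and 24.1 CPM to 32.1, 31.1 and 27.7 CPM (0.41 ± 0.0777, edgeR adjusted p = 5.33e-04). For both genes the lowest 915 library was above the highest DMSO library. The row LOC103693780 (ENSRNOG00000005130), which shares its Entrez number with Ogdh and was not found by the list, was at 302, 308 and 298 CPM with DMSO and at 474, 468 and 440.0 CPM with 915, a 1.58-fold rise (0.66 ± 0.0461, edgeR adjusted p = 3.81e-08). Dld (ENSRNOG00000006364) moved least in the complex. Its levels of 146, 139 and 158 CPM with DMSO overlapped those of 154, 174 and 158 CPM with 915 (1.13-fold, 0.18 ± 0.0592, edgeR adjusted p = 0.0231). The Dld call ended without DMSO library 1 (adjusted p = 0.0744), DMSO library 2 (0.0596) or 915 library 2 (0.112), and also without TMM scaling (log2 fold change 0.12, adjusted p = 0.11).

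Succinyl-CoA ligase pairs the common subunit encoded by Suclg1 with 1 of 2 partners: that of Sucla2, which makes ATP and prevails in heart and brain, or that of Suclg2, which makes GTP. Suclg1 (ENSRNOG00000005587) was at 192, 221 and 206 CPM with DMSO and at 248, 244 and 245 CPM with 915, 1.23-fold higher (log2 fold change 0.30 ± 0.0554, edgeR adjusted p = 4.34e-04). Sucla2 (ENSRNOG00000017481) rose to a like extent, 1.24-fold, from 118, 119.9 and 119 CPM to 138, 146 and 145 CPM (0.31 ± 0.0473, edgeR adjusted p = 7.41e-05). Both were higher in every 915 library. Suclg2 (ENSRNOG00000005686) did not rise with them: it was at 133, 129 and 128 CPM with DMSO and at 119, 118 and 123 CPM with 915. It was not called (−0.06, 95% interval −0.16 to 0.04, edgeR adjusted p = 0.274), although without TMM scaling it was called lower (−0.12, adjusted p = 0.0429).

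The last steps turn fumarate into malate and malate into oxaloacetate. Fh (ENSRNOG00000003653), fumarate hydratase, was at 108, 114 and 105 CPM with DMSO and at 126, 118 and 123 CPM with 915, 1.16-fold higher (log2 fold change 0.21 ± 0.0526, edgeR adjusted p = 3.96e-03). Mdh2 (ENSRNOG00000001440), the mitochondrial malate dehydrogenase, was at 380.3, 414 and 382 CPM with DMSO and at 475, 438 and 434 CPM with 915, a 1.18-fold rise (0.24 ± 0.0529, edgeR adjusted p = 1.55e-03). Neither gene's groups overlapped. The cytosolic Mdh1 (ENSRNOG00000008103) rose more, 1.45-fold, from 474, 509 and 479 CPM to 699, 681 and 664 CPM (0.53 ± 0.0477, edgeR adjusted p = 4.85e-07). Across the cycle, 12 of 15 matched genes were called higher (24.3% of all genes tested were), and the median change was 0.26 on the log2 scale. The 1 called lower was Aco1, whose call ended in 10 of the 13 alternatives. Among the 11 of them whose enzymes are mitochondrial, 10 were higher, and Suclg2 was the one not called.

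**Figure D2:**
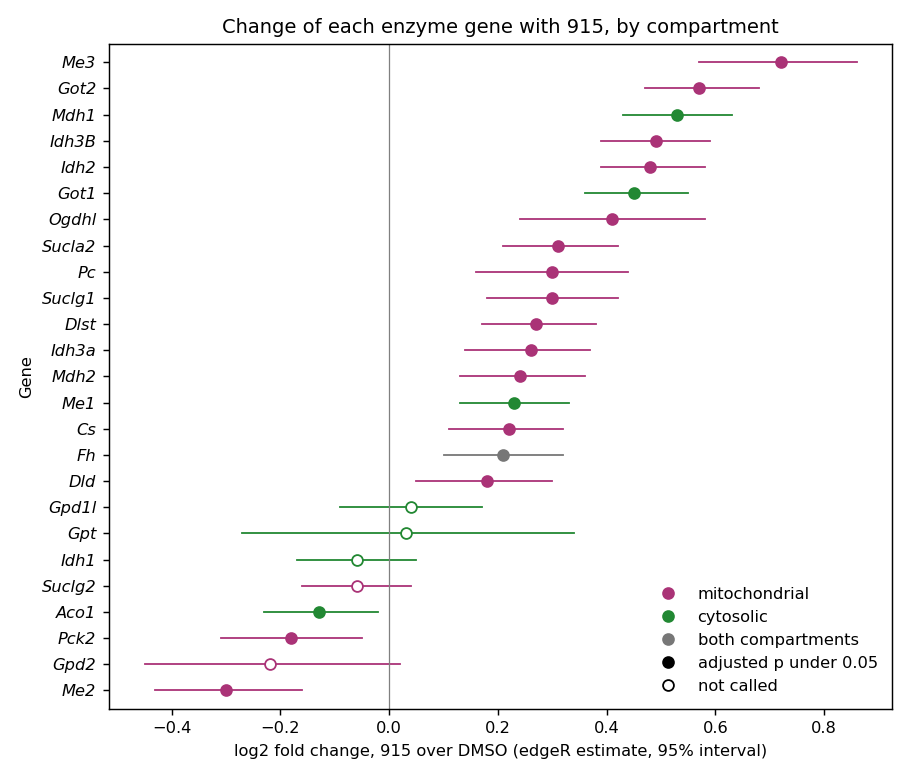
Log2 fold change of each enzyme gene, 915 over DMSO (horizontal axis, edgeR estimate with its 95% interval), ordered by size and coloured by the compartment of the enzyme. Filled points were called at an adjusted p under 0.05. Me3, Got2 and Mdh1 stand at the top (0.72, 0.57 and 0.53) and Me2 at the bottom (−0.30).

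The aspartate transaminases, which interconvert glutamate and oxaloacetate with aspartate and 2-oxoglutarate, rose in both compartments. Got2 (ENSRNOG00000011782), the mitochondrial form, was at 309, 340.1 and 332 CPM with DMSO and at 480.4, 469 and 462 CPM with 915 (1.49-fold, log2 fold change 0.57 ± 0.0497, edgeR adjusted p = 3.46e-07). Got1 (ENSRNOG00000016356), the cytosolic form, went from 166, 162 and 171 CPM to 223, 219 and 219 CPM (1.37-fold, 0.45 ± 0.0449, edgeR adjusted p = 1.28e-06). Every 915 library exceeded every DMSO library for each gene. With Mdh1 and Mdh2, all 4 enzyme genes of the malate-aspartate shuttle were thus called higher, where 24.3% of all genes tested were. The shuttle's carriers, named here after their values were seen, were split: Slc25a11, which exchanges malate for 2-oxoglutarate, rose 1.4-fold (149.5 ± 5.68 and 202 ± 3.69 CPM, edgeR adjusted p = 1.71e-06). The aspartate-glutamate carrier gene Slc25a13 rose 1.3-fold (48.3 ± 1.36 and 60.6 ± 2.20 CPM, edgeR adjusted p = 6.58e-05). Its relative Slc25a12 was at 44.0 ± 0.868 CPM with DMSO and 43.1 ± 2.85 CPM with 915 and was not called (0.02, 95% interval −0.11 to 0.15, edgeR adjusted p = 0.819). The cytosolic alanine transaminase gene Gpt (ENSRNOG00000033915), whose enzyme links alanine to pyruvate, was scarce and not called. It was at 5.40, 6.12 and 4.43 CPM with DMSO and at 5.10, 5.01 and 5.66 CPM with 915. The groups overlapped, and the log2 interval of −0.27 to 0.34 leaves room for a change either way (edgeR adjusted p = 0.864).

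Among the 10 tested genes outside the cycle steps, which refill or drain the pool of four-carbon acids or serve the shuttles, 5 were called higher, against 24.3% of all genes, with a median log2 fold change of 0.14. The 2 called lower, Me2 and Pck2, are a share near the 25.5% of all genes called lower. Pc (ENSRNOG00000019372), pyruvate carboxylase, which makes oxaloacetate from pyruvate, was at 40.9, 40.1 and 40.8 CPM with DMSO and at 50.0, 51.0 and 44.0 CPM with 915. All 915 libraries were above the DMSO libraries, library 3 by the least, and the rise was 1.23-fold (log2 fold change 0.30 ± 0.0640, edgeR adjusted p = 1.38e-03). The phosphoenolpyruvate carboxykinases run the other way, from oxaloacetate to phosphoenolpyruvate. The mitochondrial form Pck2 (ENSRNOG00000018536) was at 71.0, 75.2 and 71.8 CPM with DMSO and at 65.1, 57.4 and 63.9 CPM with 915, 1.13-fold lower (−0.18 ± 0.0604, edgeR adjusted p = 0.0256). That call ended without DMSO library 2 (adjusted p = 0.0698), DMSO library 3 (0.0509) or 915 library 2 (0.121). Pck1 (ENSRNOG00000028616), the cytosolic form known from liver and kidney, had 4, 2 and 6 counts in the DMSO libraries and 2, 2 and 5 in the 915 libraries, a depth at which no difference could be detected.

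Of the genes for the 3 malic enzymes, which interconvert malate and pyruvate, Me3 and Me1 rose to unequal extents and Me2 fell. Me3 (ENSRNOG00000017311), a mitochondrial NADP-dependent form, had the largest log2 fold change of the 25 tested genes: it was at 22.9, 22.6 and 23.4 CPM with DMSO and at 35.2, 39.1 and 35.0 CPM with 915, 1.64-fold higher (log2 fold change 0.72 ± 0.0665, edgeR adjusted p = 7.08e-07). Me2 (ENSRNOG00000015582), the mitochondrial form that can use NAD, had the lowest: it fell from 40.9, 37.7 and 36.5 CPM to 30.4, 30.7 and 29.6 CPM, 1.23-fold (−0.30 ± 0.0625, edgeR adjusted p = 1.27e-03). The groups were apart for both genes, in opposite directions. Me1 (ENSRNOG00000009715), the cytosolic form that supplies NADPH for lipid synthesis, rose 1.17-fold, from 134, 128 and 132 CPM to 149, 146 and 152 CPM (0.23 ± 0.0459, edgeR adjusted p = 7.76e-04).

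The glycerophosphate shuttle, the other route for cytosolic reducing equivalents, was not called in either measured gene. Gpd1l (ENSRNOG00000026455), a cytosolic relative of Gpd1, was at 72.5, 68.0 and 72.4 CPM with DMSO and at 75.4, 70.7 and 65.3 CPM with 915, with overlapping groups (0.04, 95% interval −0.09 to 0.17, edgeR adjusted p = 0.618). Gpd2 (ENSRNOG00000033824), the flavin-linked enzyme of the inner mitochondrial membrane, was at 7.91, 7.99 and 7.82 CPM with DMSO and at 6.04, 6.94 and 6.76 CPM with 915. Although each 915 library was below each DMSO library, the fitted change of −0.22 had an interval of −0.45 to 0.02 (edgeR adjusted p = 0.113).

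By compartment, 13 of the 17 mitochondrial genes were called higher and 2 lower (median log2 fold change 0.27). Of the 7 tested cytosolic genes 3 were called higher (Mdh1, Got1 and Me1) and 1 lower (median 0.04). Over all genes tested these shares were 24.3% and 25.5%, and the difference between the compartments was not tested. Of the 3 lower calls, those of Aco1 and Pck2 ended under some alternatives. To ask whether paired forms moved unequally, the log2 ratio of their counts was formed within each library, which does not depend on scaling. Ratios were computed for 12 pairs, 4 of them added after the values were seen, and 4 further pairs lacked a row. The ratios of the 2 groups did not overlap for 11 of the 12, among them the 4 added pairs. Some genes occur in more than 1 pair, so the pairs are not independent. For each of the 11 pairs the exact two-sided permutation p was 0.1, or 0.109 adjusted over the 12 pairs. This is the smallest p that 3 against 3 libraries allow, so no pair could pass a threshold of 0.05, and the ratios are given as values. How often other gene pairs would separate likewise was not computed. Of single genes tested, 23.9% had all 915 libraries above all DMSO libraries in CPM, and 32.8% below.

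The balance moved toward the mitochondrial form for NADP-dependent isocitrate dehydrogenase. The log2 ratio of Idh2 to Idh1 was 2.53, 2.72 and 2.58 in the DMSO libraries and 3.14, 3.17 and 3.16 in the 915 libraries, a difference of 0.55 ± 0.0571 (SE, n = 3 each) or 1.46-fold. For malate dehydrogenase the balance moved toward the cytosolic form: Mdh2 to Mdh1 was −0.32, −0.30 and −0.32 with DMSO and −0.56, −0.64 and −0.61 with 915, a difference of −0.29 ± 0.0249. Aspartate transaminase changed less. Got2 to Got1 was 0.89, 1.07 and 0.95 with DMSO and 1.11, 1.10 and 1.07 with 915, a difference of 0.12 ± 0.0539 in which DMSO library 2 and 915 library 3 were nearly equal.

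Within mitochondria, alternative enzymes also shifted against each other, and the remaining pairs, some with a cytosolic member, are given beside them. The log2 ratio of Me3 to Me2 was −0.84, −0.74 and −0.65 with DMSO and 0.21, 0.35 and 0.24 with 915, a 2.01-fold change of the ratio (1.01 ± 0.0705), in a pair added after the values were seen. Against the cytosolic Me1, the ratio of Me3 changed by 0.48 ± 0.0688 and that of Me2 by −0.52 ± 0.0507. Sucla2 to Suclg2, the ATP-forming against the GTP-forming subunit, was −0.17, −0.10 and −0.10 with DMSO and 0.21, 0.31 and 0.24 with 915, a difference of 0.38 ± 0.0378 or 1.3-fold. Idh3a to Idh2, the NAD against the NADP enzyme, changed by −0.23 ± 0.0499. Of the other added pairs, Idh3B to Idh3a changed by 0.23 ± 0.0572, LOC103693780 to Ogdhl by 0.24 ± 0.0866 and Gpd2 to Gpd1l by −0.25 ± 0.119 (−0.14 without 915 library 1). The ratio of Pck2 to Pck1, which rests on few counts of Pck1, changed by −0.02 ± 0.540 and its groups overlapped (exact two-sided permutation p = 1).

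**Figure D3:**
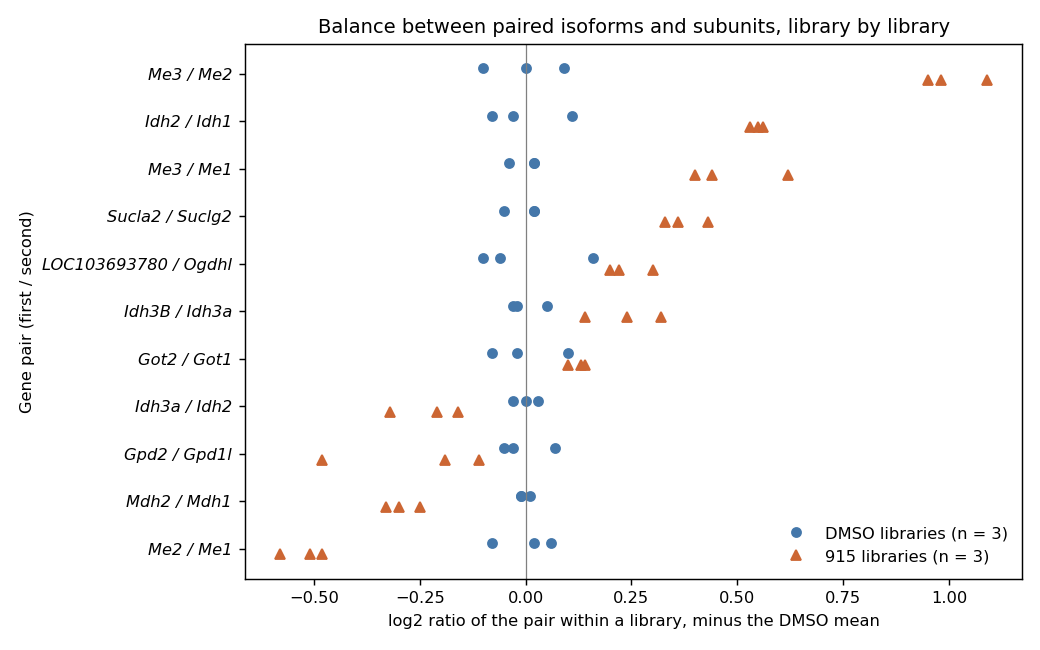
Log2 ratio of the counts of 2 genes within each library, minus the mean ratio of the 3 DMSO libraries (horizontal axis), for 11 pairs ordered by their change. Circles are DMSO and triangles 915 libraries. The ratio of Me3 to Me2 moved by 1.01 and that of Me2 to Me1 by −0.52, and for Got2 to Got1 the groups nearly touch.

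The other genes of the pathway, from a list of 37 of which 35 were in the table and 34 were tested, included 19 called higher, where 24.3% of all genes tested were, and 3 called lower, where 25.5% were (median 0.30 on the log2 scale). The 4 subunits of succinate dehydrogenase, the cycle enzyme that is also respiratory complex II, were all higher. Sdha, the flavin-bearing subunit, rose 1.19-fold (417 ± 12.4 and 481 ± 5.62 CPM, edgeR adjusted p = 3.10e-04), Sdhb, the iron-sulfur subunit, 1.44-fold (190.0 ± 12.1 and 265 ± 3.68 CPM, edgeR adjusted p = 1.66e-06), and the membrane anchors Sdhc and Sdhd each 1.37-fold (edgeR adjusted p = 3.39e-06 and 4.30e-06). The 3 largest rises on the list were those of Adhfe1, Sdhaf3 and Lias. Adhfe1, whose mitochondrial enzyme passes hydrogen from hydroxybutyrate to 2-oxoglutarate, was at 8.96, 11.0 and 9.57 CPM with DMSO and 18.6, 19.8 and 17.2 CPM with 915 (1.94-fold, log2 fold change 0.96 ± 0.0980, edgeR adjusted p = 1.86e-06). Sdhaf3, an assembly factor of succinate dehydrogenase, rose 1.5-fold (5.62 ± 0.149 and 8.12 ± 0.850 CPM, edgeR adjusted p = 8.84e-04), and Lias, which makes the lipoyl group that Dlst carries, 1.48-fold (19.5 ± 1.79 and 28.0 ± 0.679 CPM, edgeR adjusted p = 2.89e-05).

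The 3 genes called lower on this list were Acly, Slc25a1 and Gls2. The product of Slc25a1 exports citrate from mitochondria, and that of Acly splits it in the cytosol into acetyl-CoA and oxaloacetate. Acly was at 199, 194 and 193 CPM with DMSO and at 101, 91.7 and 95.7 CPM with 915, 1.96-fold lower (log2 fold change −0.97 ± 0.0499, edgeR adjusted p = 1.63e-09). Slc25a1 was at 62.2, 63.6 and 56.6 CPM with DMSO and at 38.5, 38.0 and 38.5 CPM with 915, 1.53-fold lower (−0.62 ± 0.0601, edgeR adjusted p = 1.15e-06). Thus the genes for citrate export and cleavage were lower in every 915 library while Cs, which makes citrate in mitochondria, was higher. Gls2, a mitochondrial glutaminase, which releases glutamate from glutamine, was 1.51-fold lower (6.79 ± 0.533 and 4.35 ± 0.353 CPM, edgeR adjusted p = 1.34e-03).

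**Figure D4:**
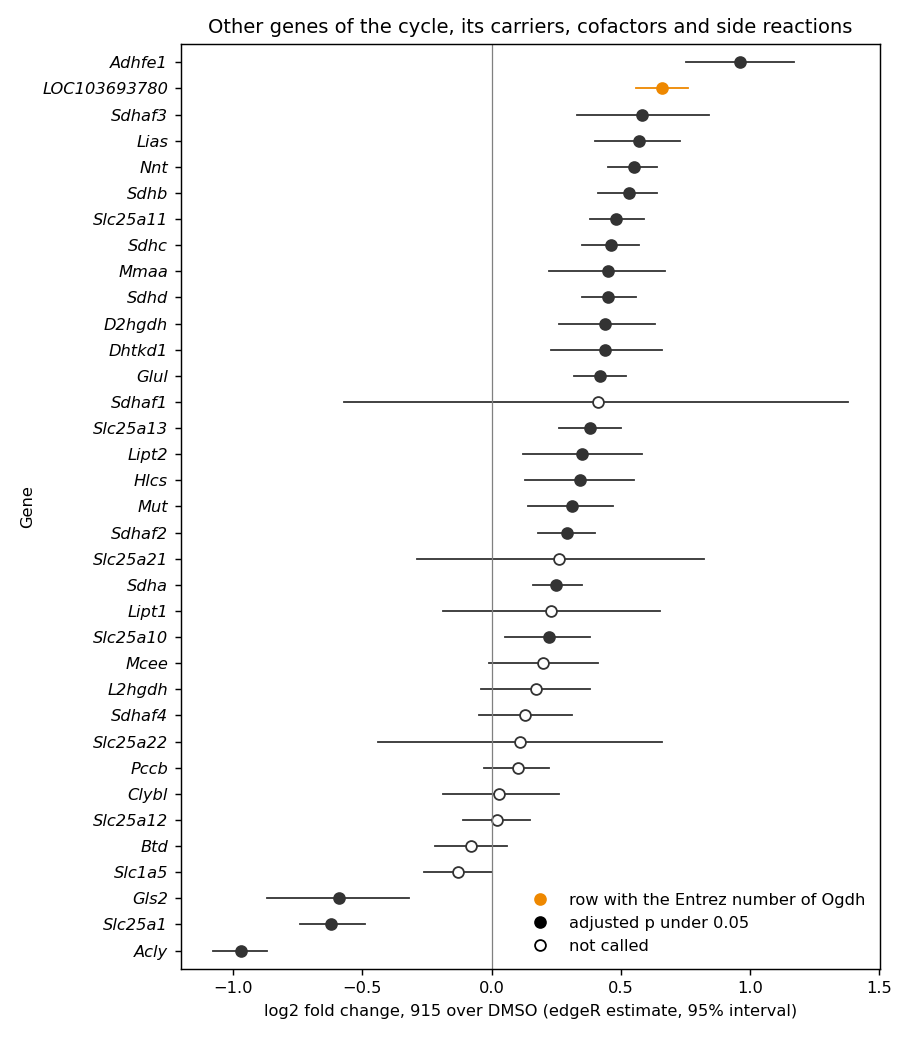
Log2 fold change, 915 over DMSO, of the 34 tested other genes of the pathway and of the row LOC103693780 (horizontal axis, edgeR estimate with its 95% interval). Filled points were called at an adjusted p under 0.05. Adhfe1 lies highest at 0.96 and Acly lowest at −0.97, and Sdhaf1 has the widest interval.

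Promoter windows from RefSeq (build GRCr8, 250 bases before to 50 after the annotated start) were found for 22 of the 26 genes and searched on both strands for the ERR response element. The full element TCAAGGTCA was in 0 of the 22 windows, where 0.433% of all 33469 windows hold it. The looser form TNAAGGTCA, which includes the full element, was in 0 of 22 against 1.20% of all windows, and the core AAGGTCA, contained in both, in 0 of 22 against 4.61%. A search added after this one, for GCGCATGCG, a stretch of the element bound by the nuclear respiratory factor NRF1, also found 0 of 22 against 1.52%. At these shares few or no matches among 22 windows are the usual outcome, and sites outside the windows were not searched.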

How the data were processed

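The tools named in the submitters' processing notes are STAR 2.5.1a and, from Subread, featureCounts 1.4.6-p5, with Rnor_6.0 as the rat build. How strand and reads with several matches were handled is not given in the sources used here: near-identical copies and overlapping genes may share reads. The deposited count table gives raw counts in 22641 rows, of which 993 repeats of an Ensembl identifier were dropped. The deposited CPM values equal these counts over 1 total per library, which exceeds the sum of the table (93.1% to 93.7% of it is in the table).

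The count fit used edgeR 4.0.16 in R 4.3.3 (filterByExpr, TMM, quasi-likelihood test on group alone, two-sided, 3 DMSO against 3 915 libraries, 14253 genes). The standard error is the log2 fold change divided by the square root of F, and 95% intervals use the fit's degrees of freedom. Pair ratios used a prior count of 0.5 and an exact permutation test. Between any 2 libraries of 1 group, counts differed beyond sampling noise (5.49 to 11.7 chi-square units for each degree of freedom). A count of 3, the most that a count of 0 allows, equals 0.0698 to 0.0917 CPM, for counting error only. Alternatives were DESeq2 1.42.0, other scalings and filters, a replicate block and leaving out each library. Without composition factors the median log2 fold change of all genes was −0.067 in place of −0.010.

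The genes, lists and tests were chosen with earlier results of these data known. By rule, every listed enzyme gene is named, as are the succinate dehydrogenase subunits and the 3 largest rises and falls among the other pathway genes called. Hepatocyte-type markers (Alb, Apoa1, Ttr) summed to 1.25 to 2.14 CPM per library. Compound 332, named in the design text, was not analysed here, and 1 gene and 1 pair of the planned lists are not reported here. The RefSeq table supplied names and promoter windows only.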

Additional observations from a re-analysis of the deposited data

How the results depend on the processing

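The count of enzyme genes called higher stayed between 16 and 17 under all 13 alternatives, and that of the other pathway genes between 17 and 19, with 3 or 4 lower. The count over all genes tested moved as well. Between 2808 (without composition factors) and 3545 (with DESeq2-type size factors) were called higher. Between 3105 (without DMSO library 3) and 4285 (without composition factors) were called lower. The count of enzyme genes called lower, 3 in the fit above, was 2 in DESeq2, with DESeq2-type size factors or with no filter, 4 without composition factors, and 1 to 2 when 1 library was left out (1 without DMSO library 2, DMSO library 3 or 915 library 2, where Aco1 and Pck2 were lost). With the replicate block it was 1, with 16 called higher: the calls of Aco1 (adjusted p = 0.116), Pck2 (0.0749) and Dld (0.0628) ended. Same-numbered libraries did not deviate together (correlations −0.0338, −0.111 and −0.0896). Such values cannot tell whether same-numbered samples were prepared together, which the labels do not state. The signs of 2 uncalled genes turned without composition factors (Gpt −0.02 and Gpd1l −0.02) and when 1 library was left out, where Gpt ran from −0.08 (without DMSO library 3; −0.03 without 915 library 3) to 0.15 and Gpd1l from −0.01 (without 915 library 1) to 0.09. The cause was not tested. A prior count of 2 and leaving out 1 library kept the direction of the 11 pair ratios whose groups did not overlap, while that of Pck2 to Pck1 ran from −0.38 to 0.38 when 1 library was left out. Low counts kept Pck1 from being tested. Gpt and Gpd2, with mean levels of 5.31 and 7.91 CPM with DMSO, had wide intervals. The DMSO libraries of Gpt also varied, with an SD of 15.9% of their mean. What made these intervals wide was not tested.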
